A study of Mus musculus with 12 samples.

Results

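The genes described here are the secreted ligands of the Wnt pathway, their receptors, their secreted antagonists and the factors closest to them, as measured in mouse hearts at postnatal day 8. A gene was taken by its symbol in the annotation of the array: the families Wnt, Fzd, Sfrp, Dkk and Rspo, the genes Lgr4 to Lgr6, Porcn, Wls, Notum, Wif1, Apcdd1, Lrp5, Lrp6, Ror1, Ror2, Ryk, Axin1 and Axin2, and the transcription factors Lef1, Tcf7, Tcf7l1 and Tcf7l2. Of the 17742 genes named on the array, 58 met this rule, through 66 probes, and each is described by its brightest probe, going by the mean over all arrays. They were 19 ligands, 2 genes that process ligands, 14 receptors, 10 antagonists, 7 R-spondins and Lgr receptors, 2 Axins and 4 Lef1 and Tcf factors. Ryk and Notum were not analysed here.

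The hearts came from a C57bl/6 X 129 hybrid background. There were 2 samples labelled Salv CKO, with a conditional mutation of Salvador (Sav1, the scaffold of the Hippo kinases), and 2 labelled Control, of wild-type genotype. Total RNA of each sample was labelled with Cy5 and hybridised to 3 technical arrays, 12 arrays in all. No source used here names the Cre driver or the deleted part of Sav1, or says whether a sample was 1 heart or a pool.

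Wnt proteins are lipid-modified by Porcn and carried out of the cell by Wls. At the receiving cell they bind a Frizzled receptor together with Lrp5 or Lrp6, which stops the Axin complex from destroying beta-catenin, and beta-catenin then acts with Lef1 and Tcf factors on target genes. Sfrp and Wif1 proteins bind the ligand, Dkk proteins block the Lrp co-receptors, and R-spondins with their Lgr receptors keep Frizzled on the surface. Ror receptors serve a branch that does not use beta-catenin. Hippo signalling has been reported to restrain this pathway in the embryonic heart muscle, and the comparison bears on whether its genes depend on Salvador after birth.

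Sav1 did not follow the labels, so the direction of every difference below is that of the labels only. Its log2 level was 8.06 and 8.52 in samples labelled Salv CKO 1 and 2, against 8.75 and 8.08 in the samples labelled Control 1 and 2. The sample labelled Salv CKO 2 stood above Control 2, and a probe outside the deleted part would check nothing. Levels are log2(quantile-normalized intensity + 1), averaged over the 3 technical arrays of a sample. Differences of dim probes on this scale depend strongly on the constant that is added. The 5 measured of 10 cardiomyocyte markers stood between 14.88 and 15.62 in every sample, as the label whole heart has it. Markers of airway and alveolar cells, 9 measured of 11 listed, parted the samples across the labels by their summed normalized intensities. These were 2782 and 492.8 in Salv CKO 1 and 2, against 566.6 and 7854 in Control 1 and 2. In Salv CKO 1 and Control 2 the sums rested mostly on the secretoglobin genes Scgb1a1, Scgb3a1 and Scgb3a2. Sftpa1, Sftpb, Sftpc, Sftpd and Ager lay below the background level given below. Of these, Sftpd also parted the samples, at 83 and 4.44 in Salv CKO 1 and 2, against 5.31 and 92.94 in Control 1 and 2. Ager did not, at 24.14 and 11.53 in Salv CKO, against 14.92 and 11.03 in Control. Foxj1 ran differently, at 424.2 and 370.7 in Salv CKO 1 and 2, against 451.8 and 271.9 in Control 1 and 2. In whole tissue, fewer cells of a type and less RNA per cell cannot be told apart.

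The file has no detection flag, so 626 probes of olfactory, vomeronasal and taste receptors, which are not expected in the heart, served as a measure of background. Their mean normalized intensity had a median of 7.745 and a 95th percentile of 155.3. Of the 58 members, 21 lay above this 95th percentile, 32 above the 90th and 42 above the 75th, and 7 lay at or below the median of the receptor probes. The 37 members at or below the 95th percentile are called dim here, and no fold is given for them. Their intensities are given where they differed most.

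**Figure D1:**
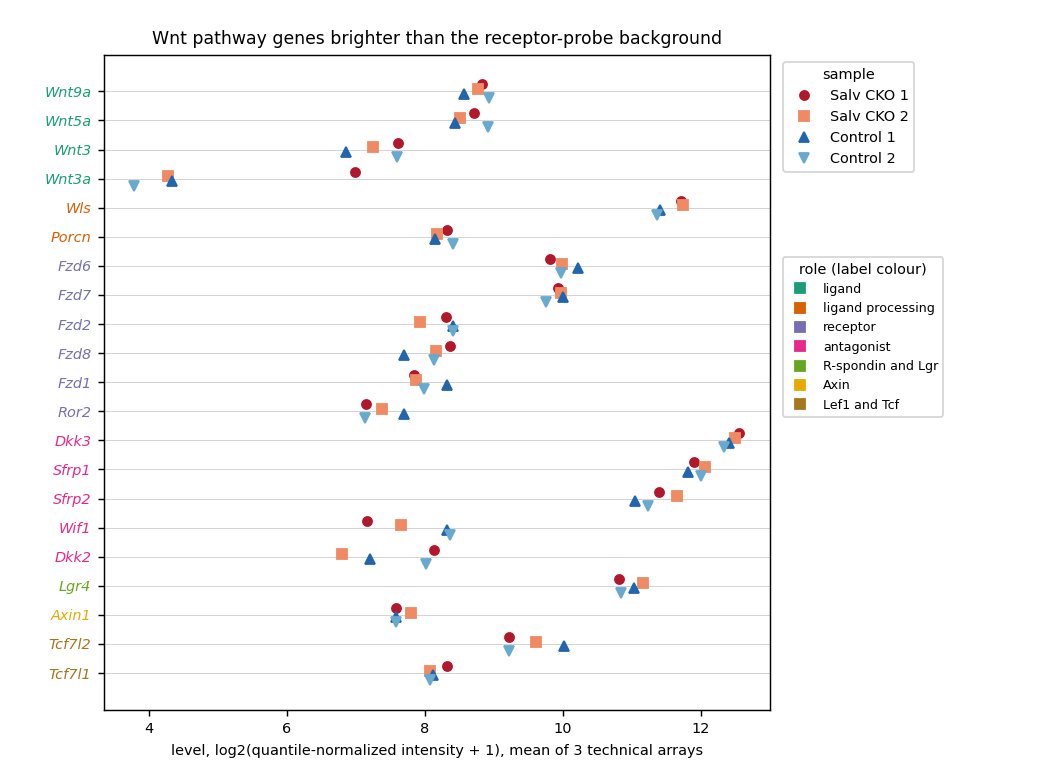
Log2 level of the 21 members above background in each of the 4 samples, with 1 point per sample (the mean of 3 technical arrays) and the colour of a gene's name giving its role. The points of the samples labelled Salv CKO (red and orange) and Control (dark and light blue) do not overlap for 7 of the 21 genes, among them Wif1: 4, or 19%, are higher in Salv CKO, beside 14.7% of all probes above background, and 3, or 14.3%, are lower, beside 16%. Levels of different probes cannot be set against each other.

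Of the 58 members, 0 passed an adjusted p of 0.05 in the limma comparison of the 2 samples labelled Salv CKO with the 2 labelled Control, where 0% of all 26423 probes passed (smallest adjusted p = 0.998). Wnt10b, Wnt2b and Lgr6, or 3 of the 58 members, were higher in Salv CKO at an unadjusted p under 0.05, as were 1.95% of all probes. Wif1, or 1 of the 58, was lower, as were 2.02% of all probes. Of these 4, Wif1 was above background. Both groups were without overlap for 9 members on the higher side, or 15.5%, against 14.8% of all probes, and for 11 on the lower side, or 19%, against 15.8% of all probes. Without normalization between arrays, where the median difference of all probes was 0.11, these became 17 and 7, where 27.6% of all probes did not overlap in either direction. Those at an unadjusted p under 0.05 became 6 and 0, where 4.95% of all probes were at that p. The difference was positive for 30 members and negative for 28, with a median of 0.044 on the log2 scale, beside -0.010 over all probes. The 4 members at an unadjusted p under 0.05 became 8 without Control 2, where 10.7% of all probes were at that p. Of the 28 genes above background that are named by rule, Sav1 and genes of the pathway lists included, 22 had a difference that moved by over 1.5 times or changed sign when 1 sample was left out. With arrays centred on their medians 20 did, and Wif1 and Birc5 were the 2 that did neither. With arrays centred on their medians in place of quantile normalization, the median of all probes was -0.078, and the differences of Dkk3, Sfrp1, Fzd7, Wnt9a, Lgr4 and Tcf7l1 given below changed sign.

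**Figure D2:**
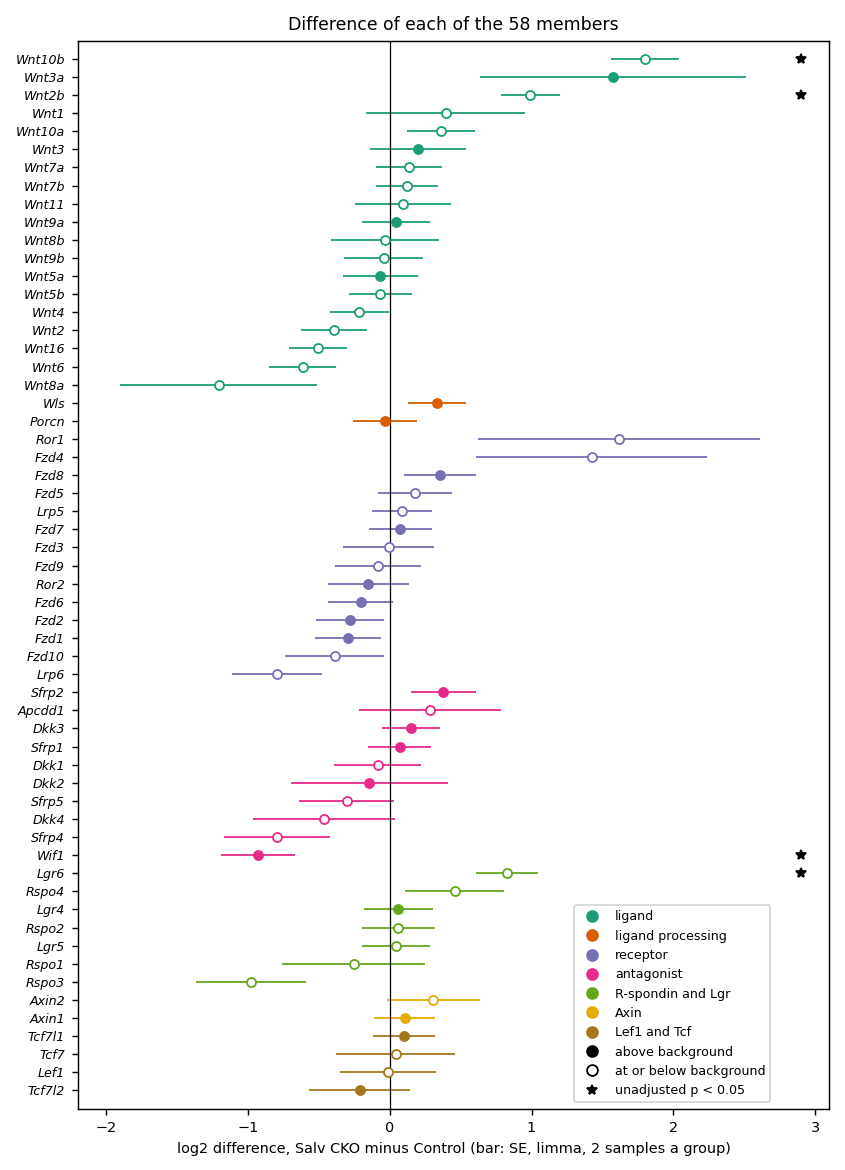
Log2 difference, Salv CKO minus Control, of each of the 58 members, ordered by role and size, with the SE from limma as a bar. Filled points are above background, open points at or below it, and a star marks the 4 members at an unadjusted p under 0.05. The widest bars are those of Ror1, Wnt3a and Fzd4, in which 1 sample or 1 array stood apart.

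The sequences upstream of Wif1 and Lgr6 are shown because they were the members with the smallest p among those brighter than the 90th percentile of the receptor probes. Each is the stretch of 250 bases before the annotated start in RefSeq (GRCm38.p6), printed 5′ to 3′ on the strand of the gene, with capitals for matches on either strand to CTTTGA (the core of Tcf and Lef sites), GGAATG (Tead factors) or GGGCGG (the GC box). Wif1 lies at chr10:121033754-121034003 on the plus strand and Lgr6 at chr1:135105277-135105526 on the minus strand.
Wif1: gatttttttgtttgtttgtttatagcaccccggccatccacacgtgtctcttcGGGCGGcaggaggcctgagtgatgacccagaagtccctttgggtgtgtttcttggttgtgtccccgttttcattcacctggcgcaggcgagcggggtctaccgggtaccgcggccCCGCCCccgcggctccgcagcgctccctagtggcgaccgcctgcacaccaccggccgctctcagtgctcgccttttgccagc
Lgr6: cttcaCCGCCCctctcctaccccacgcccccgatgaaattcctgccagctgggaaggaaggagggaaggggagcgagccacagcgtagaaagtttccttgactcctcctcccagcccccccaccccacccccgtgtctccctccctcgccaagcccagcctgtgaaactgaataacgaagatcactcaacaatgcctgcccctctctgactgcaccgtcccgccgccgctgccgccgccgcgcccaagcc
Both hold the GC box (2 matches in Wif1 and 1 in Lgr6) and neither holds the other motifs in this window. RefSeq promoters were matched for 38 of the 58 members, some with several starts, 46 promoters in all. Of these, 13% held CTTTGA against 13.8% of all 32851 promoters, 2.17% held GGAATG against 12.6%, and 73.9% held GGGCGG against 32.7%. The single member with GGAATG was Lgr4, and those with CTTTGA were Dkk1, Fzd1, Lef1, Ror1, Wnt11 and Wnt5b. These matches describe letters in the windows, not binding.

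Wif1, which binds Wnt proteins outside the cell and keeps them from their receptors, had the smallest p among the members above background. Wnt3a had a larger difference, which rested on 1 array. The log2 level of Wif1 was 7.17 and 7.65 in samples labelled Salv CKO 1 and 2, against 8.32 and 8.36 in Control 1 and 2. The groups did not overlap, and Salv CKO 1 was the lowest. The deposited intensities were 134, 148 and 129 on the arrays of Salv CKO 1 and 221, 221 and 252 on those of Salv CKO 2, against 362, 289 and 311 in Control 1 and 328, 244 and 343 in Control 2. So 1 array of Control 2 lay within the span of Salv CKO 2. The difference was -0.93 ± 0.26 (SE, limma, adjusted p = 0.998, unadjusted p = 0.0182). Among the settings tried it passed only when all 12 arrays were fitted with the sample as a random block (limma, adjusted p = 0.0458). In that fit 0.231% of all probes passed. It uses a common correlation for all probes and counts technical arrays in its degrees of freedom, so it overstates the number of replicates. Without Salv CKO 1 the difference was -0.69. In the list of adipocyte markers 7 of 8 had a negative difference. Their normalized intensities summed to 18020 and 13770 in Salv CKO 1 and 2, against 23780 and 18690 in Control 1 and 2. Fabp4 made up most of each sum, with 12980, 12510, 15390 and 14140 in the same order. Of the 8, 4 were lower without overlap and 1 higher. Among the 4, Adipoq had log2 levels of 8.65 for Salv CKO 1 and 8.66 for Control 2. Salv CKO 1 exceeded Control 2 for Ucp1, by 11.95 to 11.74, and for Plin1, by 8.74 to 8.64. The sum of the list was lowest in Salv CKO 2, while Wif1 was lowest in Salv CKO 1. In the list of smooth muscle and pericyte markers 5 of 7 were negative, and Cnn1 was near 0 in every sample. Tagln was below background too, at 16.19 and 8.11 in Salv CKO 1 and 2, against 50.67 and 36.94 in Control 1 and 2 (limma, unadjusted p = 0.00181, adjusted p = 0.998). Rgs5 and Pdgfrb, above background and negative, overlapped between the groups. The sums of this list were 8008 and 7971 in Salv CKO 1 and 2, against 9302 and 17930 in Control 1 and 2. The last of these rested on 1 array of Control 2, where Acta2 had a deposited intensity of 30349, against 2 to 29 on the other arrays. With the median technical array in place of the mean, the sums were 7851 and 7942 in Salv CKO, against 9259 and 7806 in Control. The part of these lists in the result was not tested.

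Of the other antagonists none had an unadjusted p under 0.05 in limma. Dkk3, a secreted relative of the Dkk proteins, differed by 0.15 ± 0.21 (SE) and Sfrp1, which binds Wnt proteins, by 0.07 ± 0.22. Sfrp2, of the same family, stood at 11.40 and 11.65 in samples labelled Salv CKO 1 and 2, against 11.04 and 11.24 in Control 1 and 2. The groups of Sfrp2 did not overlap, and the difference of 0.38 ± 0.23 did not pass (limma, adjusted p = 0.998) and was 0.17 with arrays centred on their medians. Dkk2, a ligand of the Lrp co-receptors, had levels of 8.14 and 6.80 in Salv CKO 1 and 2, against 7.21 and 8.02 in Control 1 and 2. The samples of each label were thus far apart, and the difference of -0.15 ± 0.55 became 0.52 without Salv CKO 2 and 0.26 without Control 2. Salv CKO 1 and Control 2, where Dkk2 was high, also had the highest sums of airway markers, mostly from secretoglobins. The part of these in the result was not tested. The dim antagonists Dkk1, Dkk4, Sfrp4, Sfrp5 and Apcdd1 had mean normalized intensities from 1.69 to 114. Among them Sfrp4, a relative of Sfrp1, was lower without overlap, at normalized intensities of 10.14 and 19.38 in Salv CKO 1 and 2, against 28.58 and 22.19 in Control 1 and 2 (limma, adjusted p = 0.998, unadjusted p = 0.0895).

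**Figure D3:**
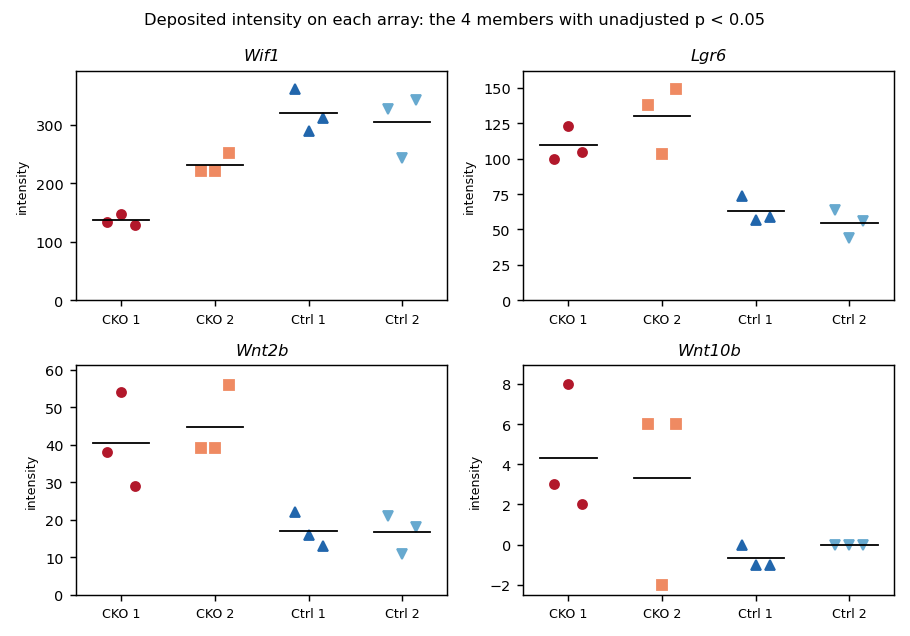
Deposited intensity of Wif1, Lgr6, Wnt2b and Wnt10b on each array before normalization, 3 points per sample with their mean as a line. The arrays of the samples labelled Salv CKO lie above those of the controls for Lgr6 and Wnt2b, those of Wif1 lie mostly below, and Wnt10b stays between -2 and 8.

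Among the ligands, Wnt5a, Wnt9a and Wnt3 were above background by their means, and in none did the labels separate. Wnt5a, the main ligand of the branch without beta-catenin, stood at 8.71 and 8.51 in samples labelled Salv CKO 1 and 2, against 8.44 and 8.91 in Control 1 and 2. Wnt9a, known from joint formation, stood at 8.83 and 8.77 in Salv CKO against 8.56 and 8.94 in Control. Wnt3, known from limb and body axis formation, stood at 7.61 and 7.25 in Salv CKO against 6.86 and 7.60 in Control. In all 3 genes Control 1 was the lowest sample. The samples labelled Salv CKO lay between the controls, except that Salv CKO 1 was level with Control 2 in Wnt3. The differences were -0.06 ± 0.26 (SE) for Wnt5a, 0.05 ± 0.24 for Wnt9a and 0.20 ± 0.34 for Wnt3. Wnt3a exceeded the background level through 1 array alone: its deposited intensity was 7627 on 1 array of Salv CKO 1 and 8 to 30 on the other 11. Its difference of 1.57 ± 0.94 became 0.05 without that array.

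The other 15 ligands were dim. Wnt2b had the smallest p among those with an intensity over 10, and its arrays separated fully. Its deposited intensities were 38, 54 and 29 in Salv CKO 1 and 39, 39 and 56 in Salv CKO 2, against 22, 16 and 13 in Control 1 and 21, 11 and 18 in Control 2 (limma, adjusted p = 0.998, unadjusted p = 0.00597). All 6 arrays labelled Salv CKO lay above all 6 labelled Control, at intensities where receptor probes not expected in the heart are also found. Wnt10b was at 3, 8 and 2 in Salv CKO 1 and 6, -2 and 6 in Salv CKO 2, against 0, -1 and -1 in Control 1 and 0 on all arrays of Control 2. These are values at background, and the unadjusted p of 0.000913 in limma at a pseudocount of 1 was 0.0779 at a pseudocount of 16. Wnt1, Wnt2, Wnt4, Wnt5b, Wnt6, Wnt7a, Wnt7b, Wnt8a, Wnt8b, Wnt9b, Wnt10a, Wnt11 and Wnt16 gave no p under 0.05.

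Wls, the carrier that brings Wnt proteins to the cell surface, stood at 11.71 and 11.74 in samples labelled Salv CKO 1 and 2, against 11.41 and 11.37 in Control 1 and 2. The groups did not overlap and the samples of a label were close. The difference was 0.34 ± 0.20 (SE, limma, adjusted p = 0.998, unadjusted p = 0.167), and it was 0.12 when arrays were centred on their medians in place of quantile normalization. Porcn, the acyltransferase of Wnt proteins, differed by -0.03 ± 0.23 (SE), and by 0.06 without normalization.

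Of the 14 receptors and co-receptors, 6 were above background, all of them Frizzled genes but Ror2. Fzd6 differed by -0.21 ± 0.23 (SE), or -0.08 without Control 1, and Fzd7 by 0.07 ± 0.22, and their groups overlapped. Fzd8 stood at 8.37 and 8.17 in samples labelled Salv CKO 1 and 2, against 7.70 and 8.13 in Control 1 and 2. Its groups did not overlap, but Salv CKO 2 and Control 2 were near each other, and the difference of 0.35 ± 0.26 became 0.14 without Control 1. Fzd1 was lower without overlap, at 7.85 and 7.87 in Salv CKO against 8.32 and 7.99 in Control, a difference of -0.29 ± 0.23 that became -0.13 without Control 1. The brighter probe of Fzd2 stood at 8.31 and 7.94 in the Salv CKO samples, against 8.40 in both controls, with a difference of -0.28 ± 0.24 that became -0.09 without Salv CKO 2. The other probe of Fzd2, also above background, differed by 0.00092, so the 2 probes did not show the same difference. Ror2, a receptor of Wnt5a, differed by -0.15 ± 0.29, and by 0.13 without Control 1. None of these passed (limma, smallest adjusted p among receptors 0.998). Lrp5 had deposited intensities from 107 to 200 and overlapped between the groups, and the probe of Lrp6 was at background in all samples.

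R-spondin and Lgr genes differed among themselves. Lgr4, the member of this group above background, stood at 10.82 and 11.17 in samples labelled Salv CKO 1 and 2, against 11.03 and 10.84 in Control 1 and 2, a difference of 0.06 ± 0.24 (SE). Lgr6 was dim but separated on every array. Its deposited intensities were 100, 123 and 105 in Salv CKO 1 and 138, 103 and 149 in Salv CKO 2, against 74, 57 and 59 in Control 1 and 64, 44 and 56 in Control 2. All 6 arrays labelled Salv CKO lay above all 6 labelled Control (limma, adjusted p = 0.998, unadjusted p = 0.0147). Without Salv CKO 1 or without Salv CKO 2 the unadjusted p was 0.0826 or 0.0879. Lgr5 and the 4 R-spondin genes were dim, with no p under 0.05, and Rspo3 was lower without overlap at intensities from 6 to 31.

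Inside the cell, Axin1, the scaffold of the complex that degrades beta-catenin, differed by 0.11 ± 0.22 (SE). Axin2, a feedback target that is often read as a sign of beta-catenin activity, was dim. Its deposited intensities were 79, 102 and 59 in Salv CKO 1 and 78, 64 and 89 in Salv CKO 2, against 83, 67 and 64 in Control 1 and 44, 33 and 48 in Control 2. Control 2 was the low sample, and Control 1 lay among the samples labelled Salv CKO. Of the transcription factors, Tcf7l1 differed by 0.10 ± 0.22. Tcf7l2 stood at 9.22 and 9.61 in Salv CKO 1 and 2, against 10.02 and 9.23 in Control 1 and 2, a difference of -0.21 ± 0.36 that became 0.19 without Control 1. Lef1 was at background on all arrays, with deposited intensities from -4 to 7. Tcf7 was dim, at 17 to 67, and thymocyte and T cell markers, cells in which Tcf7 and Lef1 are prominent, were low too: of 11 measured, Cd3e alone exceeded the background level. The sums of that list were 426.2 and 318 in Salv CKO 1 and 2, against 354.5 and 432 in Control 1 and 2.

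Many members differed between the 4 samples in ways that crossed the labels. In a limma F test over the 12 arrays, which asks whether the 4 RNA samples differ beyond their technical arrays and does not compare genotypes, 33 of 58 members passed an adjusted p of 0.05, or 56.9%, against 46.2% of all probes. Among those above background it was 15 of 21 members, or 71.4%, against 74% of all such probes, so that share lay near the background. For 19 of the 33 the labelled groups overlapped and for 14 they did not. Of all probes, passing the F test or not, 30.6% did not overlap. The share among passing probes was not counted, so the 14 of 33 have no like share beside them. Control 1 was the highest sample in 11 and the lowest in 10 of the 33, and Salv CKO 1 the highest in 8 and the lowest in 11. Over all 58 members Control 1 was highest in 29.3% and lowest in 22.4%, against 35.8% and 28.5% of all probes. Control 1 thus stood at an end no more often in the members than over all probes.

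**Figure D4:**
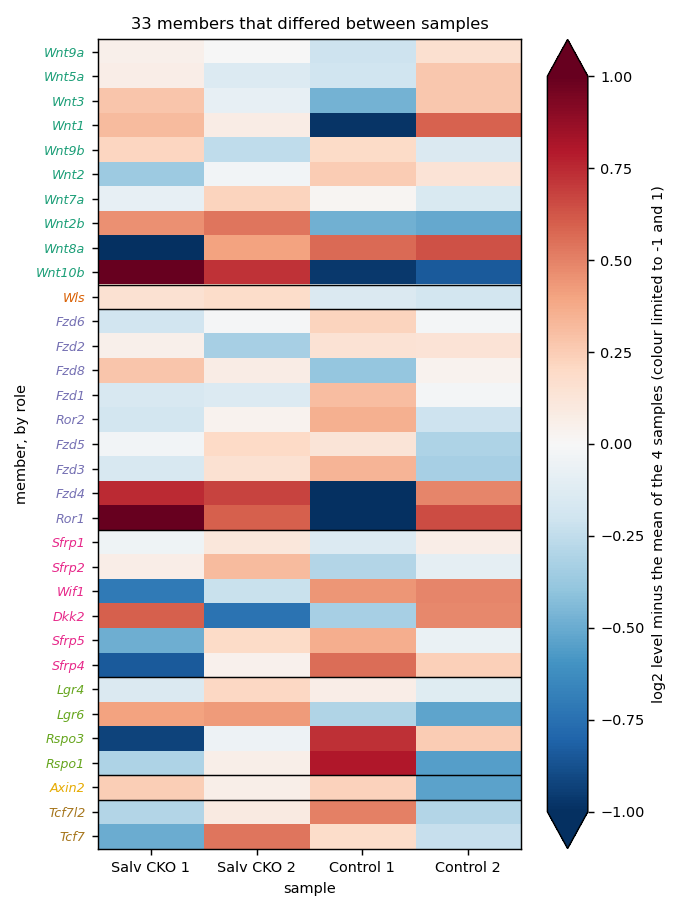
Log2 level of the 33 members that passed the F test in each of the 4 samples, as a difference from the mean of the 4 samples, with members grouped by role between the lines. Wif1, Lgr6, Wnt2b and Wnt10b change colour with the labels, while Fzd4, Ror1 and Wnt1 are low in Control 1 alone. Colours are limited to between -1 and 1.

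Several receptors and ligands, singled out after their values were seen, were low in the sample labelled Control 1 alone. Fzd4, the receptor of Norrin in blood vessels, had deposited intensities of 157, 175 and 121 in Salv CKO 1 and 171, 168 and 176 in Salv CKO 2, against 15, 29 and 19 in Control 1 and 118, 110 and 141 in Control 2. Its second, dimmer probe did not show this, with 47, 45 and 51 in Control 1 and 18 to 64 in the other samples. Ror1 had 92, 116 and 95 in Salv CKO 1 and 99, 67 and 94 in Salv CKO 2, against 14, 10 and 5 in Control 1 and 87, 53 and 89 in Control 2. Wnt1 had 134 to 196 and 148 to 180 in Salv CKO 1 and 2, against 55 to 79 in Control 1 and 162 to 219 in Control 2. These separations exceeded the spread of the technical arrays (limma F test, adjusted p = 0.000145 for Fzd4, 2.8e-05 for Ror1 and 2.9e-05 for Wnt1). None of these 3 passed between the labels (limma, adjusted p = 0.998). All 3 are dim by the background level.

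Tcf7l2 and Dkk2 parted the samples across the labels. Tcf7l2 had 496 to 529 in Salv CKO 1 and 847 to 974 in Salv CKO 2, against 1051 to 1241 in Control 1 and 522 to 568 in Control 2. Dkk2 ran the other way, with 187 to 307 and 111 to 135 in Salv CKO 1 and 2, against 134 to 152 in Control 1 and 212 to 262 in Control 2. For both genes Salv CKO 1 resembled Control 2, and Salv CKO 2 resembled Control 1. Over all probes, same-numbered samples deviated against each other as well (correlation -0.253). The pairing is thus not shown to be particular to Tcf7l2 and Dkk2, and the share of all probes with it was not counted. The F test gave an adjusted p of 1.3e-05 for Tcf7l2 and 0.000202 for Dkk2 (limma, over all probes). The sums of airway markers, mostly from secretoglobins, were high in Salv CKO 1 and Control 2 as well, and their part in this was not tested.

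A few dim members, also singled out after their values were seen, were lowest in Salv CKO 1. Sfrp5 had deposited intensities of 67 to 89 in Salv CKO 1 and 143 to 146 in Salv CKO 2, against 128 to 155 in Control 1 and 88 to 116 in Control 2 (limma F test, adjusted p = 0.000187). Sfrp4 had 9 to 15 and 19 to 23 in Salv CKO 1 and 2, against 18 to 31 in Control 1 and 15 to 22 in Control 2 (limma F test, adjusted p = 0.00121). Wnt2, a ligand of early heart progenitors, had 69 to 84 and 95 to 128 in Salv CKO 1 and 2, against 100 to 128 in Control 1 and 87 to 110 in Control 2 (limma F test, adjusted p = 0.000158). At deposited intensities Salv CKO 2 lay within the arrays of the controls or close to them in all 3 genes. After normalization Wnt2 was lower in Salv CKO without overlap, at 76.03 and 96.18 in Salv CKO 1 and 2, against 117 and 108.3 in Control 1 and 2. Sfrp4 did not overlap after normalization either, while the groups of Sfrp5 overlapped. Between the labels none of the 3 had an unadjusted p under 0.05 in limma.

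**Figure D5:**
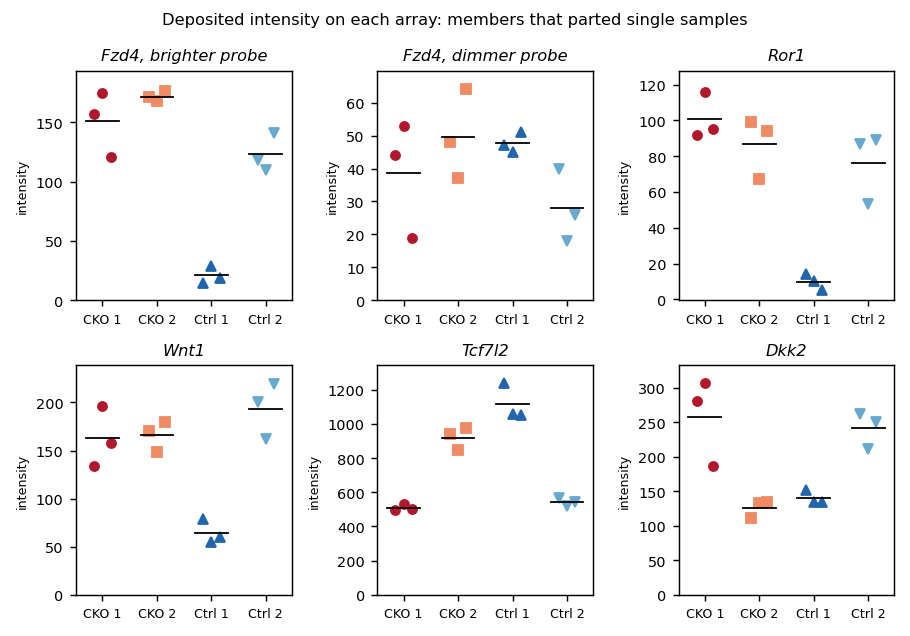
Deposited intensity on each array, 3 points per sample with their mean as a line, for the 2 probes of Fzd4 and for Ror1, Wnt1, Tcf7l2 and Dkk2. Control 1 is low for the brighter probe of Fzd4, Ror1 and Wnt1 but not for the dimmer probe of Fzd4, while Tcf7l2 and Dkk2 pair Salv CKO 1 with Control 2.

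Genes that act further along the pathway showed 0 calls in any of the lists (limma, smallest adjusted p = 0.998). Of 43 intracellular components listed, 38 were measured, 18 with a positive difference, and the median was -0.0038. Of them 1 had an unadjusted p under 0.05, the coactivator gene Crebbp, which stood at background, with normalized intensities of 11.17 and 10.03 in Salv CKO 1 and 2, against 5.81 and 6.28 in Control 1 and 2. Tnks, whose product marks Axin for degradation, stood at 58.69 and 47.06 in Salv CKO 1 and 2, against 8.88 in Control 1 and 42.25 in Control 2, so Control 1 was again the low sample. Gsk3a, a kinase of the degradation complex, was at 13.47 and 25.75 in Salv CKO, against 42.47 and 26.14 in Control, also within the range of background.

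Modulators at the cell surface had 13 of 23 measured genes positive, with a median of 0.049. The glypican gene Gpc6 differed by -0.34 ± 0.24 (SE), or -0.16 without Salv CKO 1. Tspan12, a partner of Fzd4, differed by 0.33 ± 0.29, or 0.02 without Control 1 and 0.10 with arrays centred on their medians. Sostdc1, a secreted inhibitor, was dim, at 42.53 and 38.63 in Salv CKO, against 48.11 and 51.17 in Control. Tspan12 stood at 12.29 and 12.38 in samples labelled Salv CKO 1 and 2, against 11.69 in Control 1 and 12.32 in Control 2. In the planar polarity branch 11 of 26 were positive, with a median of -0.073. Vangl1, a core polarity gene, differed by 0.34 ± 0.21 and the small GTPase gene Rhoa by 0.35 ± 0.22, both without overlap. With arrays centred on their medians these were 0.17 for Vangl1 and 0.14 for Rhoa. Celsr1 had the smallest p of this list (limma, unadjusted p = 0.114, adjusted p = 0.998) and was dim. It was lower without overlap. Its normalized intensities were 57.92 and 79.86 in Salv CKO 1 and 2, against 134.9 and 85.61 in Control 1 and 2.

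Targets of beta-catenin had 14 of 28 measured genes positive and a median of -0.033. Birc5, an inhibitor of apoptosis that also serves cell division, stood at 9.69 and 9.18 in samples labelled Salv CKO 1 and 2, against 8.25 and 8.83 in Control 1 and 2. Its groups did not overlap, and its difference of 0.90 ± 0.33 had the smallest p of the list (limma, unadjusted p = 0.0442). Averaged over the probes of Birc5 the difference was 0.58, and without Control 1 it was 0.61 (limma, unadjusted p = 0.151). Tnfrsf19 differed by 0.31 ± 0.22, or 0.20 without Control 1, and Cd44, a surface glycoprotein gene, was dim, with Salv CKO 1 lowest and Control 1 highest.

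Of the 7 members with several probes, the probes shared a sign in 3 and not in 4. Fzd2, Fzd3, Fzd4 and Fzd10 were the 4. Of these, both probes were above background in Fzd2 alone. The dimmer probe of Fzd8 was higher in the samples labelled Salv CKO, as was the brighter, at a mean normalized intensity of 16.88 (limma, unadjusted p = 0.0392, adjusted p = 0.998).

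The remaining marker lists gave no adjusted p under 0.05 (limma, smallest 0.998). Fibroblast markers summed to 86510 and 90130 in Salv CKO 1 and 2, against 86770 and 91730 in Control 1 and 2, with 4 of 10 positive. Epicardial and mesothelial markers summed to 4230 and 5360 in Salv CKO, against 5134 and 4831 in Control, with 3 of 8 positive. Endothelial markers summed to 30520 and 32430 in Salv CKO, against 33830 and 31220 in Control, with 2 of 8 positive. Macrophage markers summed to 5120 and 5216 in Salv CKO, against 5139 and 5425 in Control, with 2 of 5 positive. The 2 erythroid markers measured, of 6 listed, were both lowest in Control 2, with sums of 9049 and 13580 in Salv CKO, against 10930 and 5244 in Control.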

How the data were processed

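The authors deposited 1 table of linear intensities, with 26423 probes and 12 arrays. Values ran from -10 to 65474 and 8215 were below 0. No source used here names the scanner, a background correction or a normalization. Array medians ran from 58 to 88, so arrays were quantile normalized with limma 3.58.1 (R 4.3.3). After this, negative values took the lowest positive value, and levels are log2(value + 1). The mean over technical arrays made each of the 4 samples 1 replicate.

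The labels were compared in limma (lmFit and eBayes, Salv CKO minus Control, two-sided, 2 residual and 2.6 prior degrees of freedom), with Benjamini-Hochberg adjustment over all probes. An F test between the 4 samples used the 12 arrays. With 2 samples a group, their number limits the precision. Nothing says whether samples came from separate litters, so p-values cover only the spread among the 4 samples, which may be partly technical. The limma fits were also run on simulated log2 levels with independent normal noise. That run left out the normalization, the handling of negative values and the pseudocount, so it does not check those steps.

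Of the probes, 20377 had 1 gene symbol in the platform annotation, 0 several and 6046 none. Symbols were updated through RefSeq (GRCm38.p6), where 18213 matched as current, 2126 through a synonym of a single gene, while 38 did not match. Probe positions are left out, since no source used here names their build. Figures were drawn with matplotlib 3.10.9.

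The members and lists were chosen with earlier results of these data known. Named with values were, in each role, up to 4 members with the highest level and up to 3 with the largest F, if above background, every member at an unadjusted p under 0.05, members whose probes above background differed in sign, up to 3 genes with the smallest p in each pathway list, and Sav1. Genes low in Control 1 alone, and other members given in passing, were chosen after their values were seen. Alternatives covered the pseudocount, normalization, summary and use of technical arrays, the filter on dim probes, the probe of a gene, the replicate block and each sample left out.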

Additional observations from a re-analysis of the deposited data

How the results depend on the processing

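The crossed pairing, the omission of the Wnt3a array and the median sums of the marker lists were chosen after seeing the data. The count of members at an adjusted p under 0.05 was 0 in every setting but 1. It was 1, Wif1 at -0.93 (limma, adjusted p = 0.0458), in a fit of all 12 arrays with a random block per sample. There 0.231% of all probes passed, and technical arrays entered the degrees of freedom. The count of 4 at an unadjusted p under 0.05 (3.97% of all probes) became 8 with arrays centred on their medians (3.64%), 10 with the random block (8.33%), 8 with the crossed pairing (5.85%) and 1 among probes above background (2.73%), where fewer were tested. With the replicate block it stayed at 4, and no member passed. Same-numbered samples deviated against each other (correlation -0.253 over all probes), so the numbers were not taken as pairs. With the fit made on probes above background alone, 7 members did not overlap between the groups (30.8% of those probes) and 20 differed between the 4 samples (85.2%), against 15 in the fit of all probes. With 1 sample left out in turn, these counts ran from 3 to 8 at an unadjusted p under 0.05, from 34 to 42 without overlap, which fewer samples make easier, and from 21 to 30 for the F test, and the median difference from -0.0063 to 0.105. Over all probes, from 55.3% to 76.1% did not overlap with 1 sample left out, and from 24.3% to 41.1% differed between the samples in the F test. The counts of members are to be read beside these shares. A lone sample of a group is then assumed to vary like the others.

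Of 546 values of named genes under these alternatives, 518 kept direction and side of the threshold, 1 newly passed (Wif1) and 27 changed sign, 8 of them with all samples in use. Centring on medians gave -0.089 for Dkk3, -0.15 for Sfrp1, -0.00069 for Tcf7l1, -0.072 for Wnt9a, -0.14 for Lgr4 and -0.11 for Fzd7, and shifted the median of all probes to -0.078. No normalization gave 0.0043 for Wnt5a and 0.06 for Porcn. With 1 sample left out in turn, values ran from -0.031 to 0.17 for Sfrp1, -0.018 to 0.22 for Tcf7l1, -0.14 to 0.23 for Wnt9a, -0.11 to 0.24 for Lgr4, -0.055 to 0.21 for Fzd7, -0.30 to 0.17 for Wnt5a, -0.16 to 0.092 for Porcn, -0.46 to 0.21 for Sav1, -0.81 to 0.52 for Dkk2, -0.0035 to 0.21 for Axin1, -0.61 to 0.19 for Tcf7l2, -0.17 to 0.57 for Wnt3 and -0.43 to 0.13 for Ror2. The cause of these changes was not tested. Signal near background limits the dim members.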
